A study of Mus musculus with 8 samples.

Results

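DNA repair genes were followed across 8 Affymetrix mouse arrays of Epcam-positive cells, Epcam being an epithelial adhesion molecule, sorted from skin tumours. The members were 37 genes fixed by name: genes of homologous recombination, the Fanconi pathway, mismatch repair, base and nucleotide excision, end joining and the PARP enzymes. Of these, 36 had a probe set annotated to 1 gene, 70 probe sets in all, and the brightest probe set stood for each gene. The level filter kept 34 of the 37 members among 13939 genes tested. Xrcc2 is not analysed here, and Rad54l and Lig4 were tested in neither comparison because their probe sets did not pass; their values are given below.

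The 4 groups held 2 arrays each. Papilloma, a benign skin tumour, came as controls with the label NR2F2 WT and as tumours with NR2F2 overexpressed, labelled NR2F2 GOF (gain of function). Squamous cell carcinoma came as controls, also NR2F2 WT and without Cre, and as K5CreER;NR2F2fl/fl tumours labelled NR2F2 KO. In the latter the floxed gene is cut by a CreER recombinase under the keratin 5 promoter, which is active in basal keratinocytes. NR2F2, also called COUP-TFII, belongs to the nuclear receptors and has no settled ligand. How the tumours were raised, how NR2F2 was overexpressed, and the age of the animals are not given in the sources used here. Whether replicate arrays represent different animals is not labelled either, so every p-value below measures only the spread between these arrays, which may be technical.

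Cells mend different kinds of DNA damage by different routes. Base excision and the PARP enzymes deal with damaged bases and breaks in 1 strand, nucleotide excision with bulky lesions such as those left by ultraviolet light in skin, and mismatch repair with copying errors. Breaks through both strands are sensed by the Mre11, Rad50 and Nbn complex and the kinase Atm, and are then joined end to end or copied from the sister chromatid by homologous recombination; the Fanconi proteins open the way at crosslinks. Many genes of recombination and mismatch repair are transcribed mostly in dividing cells, under the E2F factors that also drive replication genes.

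Values are log2 RMA values. The papilloma and carcinoma arrays were on different scales, with array medians of 3.12 to 3.16 and 5.08 to 5.15, so no level was compared between tumour types. An array's background was taken as its brightest reading among 44 controls that match no mouse transcript, which lay at 3.09 to 3.33 for papilloma and at 4.95 to 5.01 for carcinoma. All 4 carcinoma arrays had 32 of the 34 members above background, and all 4 papilloma arrays had 21. Nr2f2 followed the labels: 2.80 and 2.55 in control papilloma against 11.43 and 11.47 in GOF papilloma, and 7.93 and 8.14 in control carcinoma against 4.77 and 5.0 in KO carcinoma. All 9 keratinocyte markers, Epcam and the basal keratins Krt5 and Krt14 among them, were above background on every array. The 3' minus 5' signal of actin, a sign of RNA integrity, was -0.15 and -0.20 in control carcinoma and -0.21 and -0.28 in the KO.

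With Nr2f2 removed in carcinoma, most repair genes stood higher. The highest log2 fold changes were those of the break sensor Parp1, the mismatch exonuclease Exo1, the Ku70 gene Xrcc6, the uracil glycosylase Ung and the recombination mediator Brca2, each between 1.87-fold and 2.15-fold. None of the 5 Fanconi members was separated between the groups. The helicases Wrn and Ercc2 were lower on both KO arrays by their brightest probe sets, though not by their dimmer ones. Of the 34 members, 29 had positive and 5 negative log2 fold changes, with a median of 0.36 against 0.01 over all genes tested. None passed limma's adjusted threshold of 0.05, which 0.0143% of all genes did; the members' adjusted p-values ran from 0.103 to 0.989. In sorted bulk samples, more cells of a kind and more RNA per cell cannot be told apart.

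Short of that threshold, the members' shares of higher genes stood above the shares over all genes, which are given beside them without a test between the lists. The KO arrays were both above both control arrays for 20 members (58.8%), against 23.8% of all genes, and both below for 2 members (5.88%), against 19.1%. At an unadjusted limma p under 0.05, 13 members were higher (38.2%) against 8.34% of all genes, and 0 were lower against 5.44%. All 4 array pairs differed at least 1.5-fold upwards for 4 members (11.8%), against 1.42% of all genes, and downwards for 0, against 1.48%. By role, the members higher on both KO arrays were 4 of 5 for PARP and base excision (median log2 fold change 0.45), 3 of 4 for mismatch repair (0.65), 4 of 8 for recombination (0.27), 4 of 5 for break sensing (0.38), 3 of 3 for end joining (0.45), 2 of 4 for nucleotide excision (0.04) and 0 of 5 for the Fanconi genes (0.13).

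**Figure D1:**
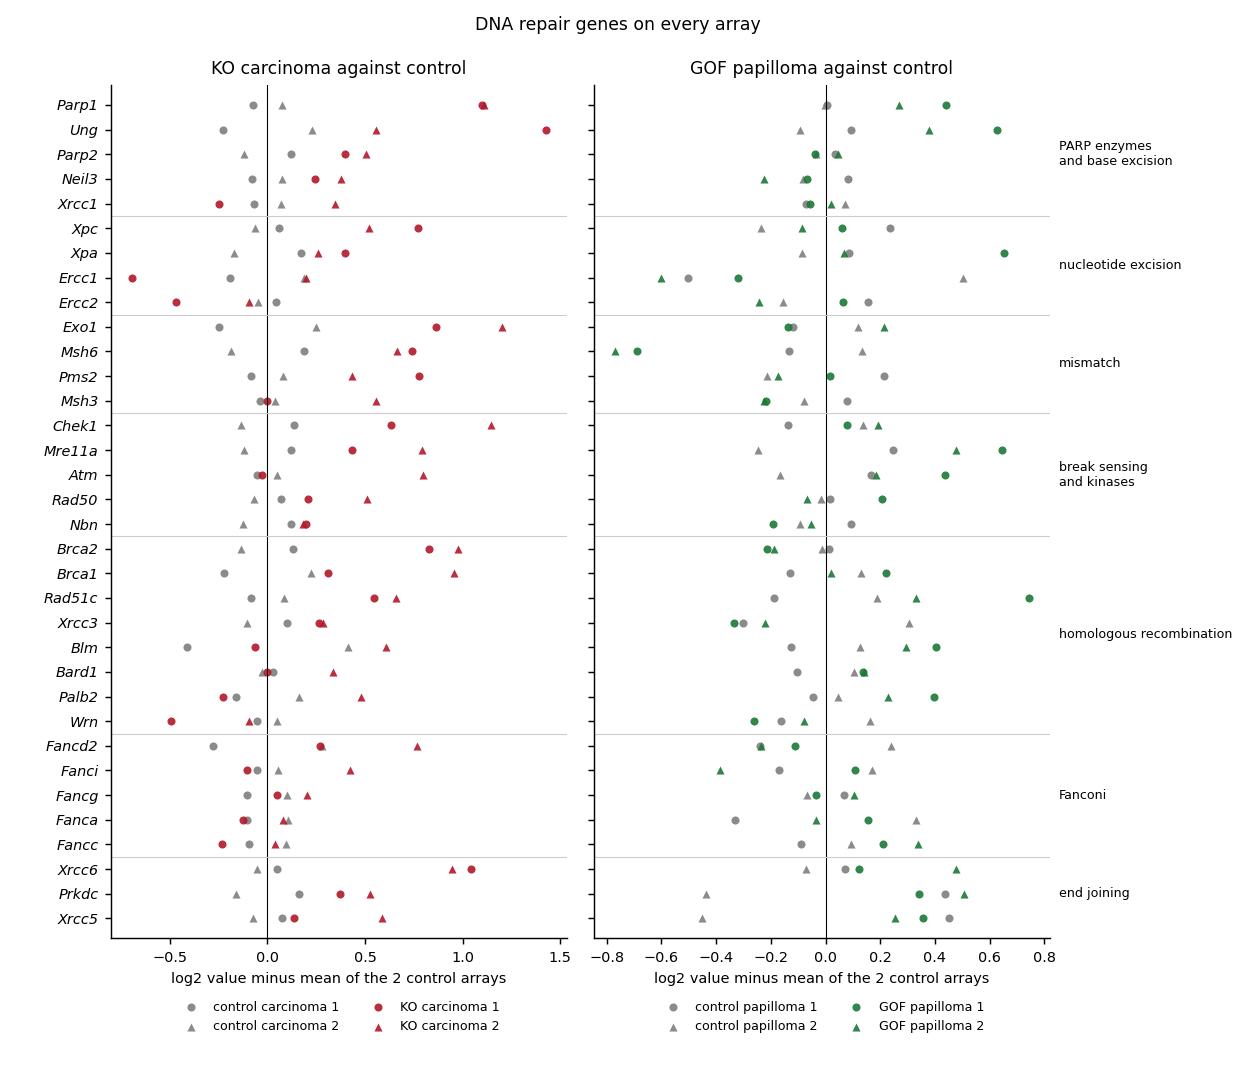
Each of the 34 tested members (rows, grouped by role) on every array, as its log2 value minus the mean of the 2 control arrays of the same tumour type (grey, controls; red, KO carcinoma; green, GOF papilloma; circles, replicate 1; triangles, replicate 2). In carcinoma both KO points lie right of both control points for 20 members, and in papilloma both GOF points do so for 10.

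Parp1 encodes the enzyme that senses strand breaks and builds poly(ADP-ribose) chains at them. It read 7.82 and 7.97 on the control carcinoma arrays and 9.0 and 9.01 on the KO arrays, so that the groups were well apart and each was tight. The log2 fold change was 1.10 (SE 0.13), 2.15-fold, with a limma adjusted p of 0.103, and 9 of all genes tested had a smaller p. Its other 2 probe sets gave differences of 0.74 and 1.06.

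Ung, which cuts uracil out of DNA, stood at 7.10 and 7.55 in the controls and at 8.75 and 7.88 in the KO. The KO arrays were both higher, with KO replicate 1 well above the other. The log2 fold change was 0.99 (limma adjusted p = 0.243, SE 0.30), and 0.56 without KO replicate 1. Parp2, the second break-sensing PARP, differed less, with 6.76 and 6.51 against 7.03 and 7.14, a log2 difference of 0.45 (limma adjusted p = 0.246, SE 0.14). The glycosylase Neil3 differed by 0.31 and the scaffold Xrcc1, which holds the base excision enzymes together, by 0.05 on the log2 scale.

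In mismatch repair, Exo1 and Msh6 stood out. Exo1, which degrades the faulty strand, read 5.52 and 6.01 in the controls against 6.63 and 6.97 in the KO. The groups did not overlap, with a log2 difference of 1.03 (limma adjusted p = 0.158, SE 0.23). Msh6, which recognises mispaired bases, was the brightest of this group and read 8.82 and 8.45 against 9.38 and 9.30. Its log2 fold change was 0.70 (limma adjusted p = 0.180, SE 0.17). Pms2, an endonuclease of mismatch repair, differed by 0.60 (SE 0.20). For Msh3, which serves larger loops, KO replicate 1 at 7.10 lay between the controls at 7.06 and 7.14, and KO replicate 2 was at 7.65.

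Among the recombination genes, Brca2 acts on resected ends. It read 5.17 and 4.91 in the controls, the latter below that array's background of 4.96, and 5.87 and 6.02 in the KO. The groups did not overlap, and the log2 fold change was 0.90 (limma adjusted p = 0.122, SE 0.14). Its partners did not differ alike. Brca1, which directs resection, read 6.87 and 7.31 against 7.40 and 8.05, a log2 difference of 0.63 (limma adjusted p = 0.352, SE 0.26) with KO replicate 1 only just above control replicate 2. Palb2, the bridge between Brca1 and Brca2, differed by 0.12 with overlapping groups, and Bard1 was below background on all 8 arrays. Rad51c, which acts in strand exchange, read 5.34 and 5.50 against 5.97 and 6.08 (0.60, SE 0.20), and Xrcc3, with which it forms a complex, differed by 0.27. The RecQ helicase Blm overlapped between groups (0.27, SE 0.32). Wrn, the related Werner helicase, was lower on both KO arrays, 5.91 and 6.31 against 6.35 and 6.46, a log2 fold change of -0.29 (SE 0.19). Its other probe sets, above background on all 4 carcinoma arrays, differed by 0.02 and 0.01, so the lowering rests on the brightest alone. Rad54l, the untested recombination motor, read 4.10 and 4.13 in the controls against 4.12 and 4.27 in the KO, all below background.

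The break sensors and kinases all had positive log2 fold changes. Chek1, the checkpoint kinase of replication stress, read 6.45 and 6.18 in the controls against 6.95 and 7.46 in the KO, with no overlap (0.89, SE 0.21, limma adjusted p = 0.172). Mre11a, the nuclease of the sensor complex, read 7.04 and 6.80 against 7.36 and 7.72 (0.61, SE 0.22). Its partners Rad50 and Nbn differed by 0.36 and 0.19, also without overlap. The second Mre11a probe set, above background on all 4 carcinoma arrays, differed by 0.11 with overlapping groups. Atm stood at 7.53 and 7.63 against 7.55 and 8.38, so that its difference of 0.38 came from KO replicate 2.

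In end joining, Xrcc6 encodes Ku70, which with Ku80 caps broken ends. It read 6.04 and 5.94 in the controls against 7.04 and 6.94 in the KO, and the gap between groups was far wider than either pair. The log2 fold change was 0.99 (SE 0.16), 1.99-fold, with a limma adjusted p of 0.122. The Ku80 gene Xrcc5 read 8.70 and 8.55 against 8.76 and 9.21 (0.36, SE 0.30), and Prkdc, the kinase that Ku recruits, differed by 0.45 (SE 0.29). Lig4, the ligase of this route and untested, was at 3.78 and 3.90 against 4.01 and 3.97, below background throughout.

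Nucleotide excision and Fanconi genes had the lowest medians. Xpc, which finds bulky lesions, read 6.29 and 6.17 in the controls against 7.0 and 6.75 in the KO (0.65, SE 0.19, limma adjusted p = 0.236). Xpa, which checks the lesion, differed by 0.33. The helicase Ercc2 was lower on both KO arrays (-0.28, SE 0.20), and its second probe set differed by -0.04 with overlapping groups. The nuclease subunit Ercc1 read 9.57 and 9.95 against 9.06 and 9.95, with the low value on KO replicate 1. None of the 5 Fanconi members was separated between the groups. Fancd2, the protein that is ubiquitinated at crosslinks, came nearest, with 5.14 and 5.70 in the controls against 5.69 and 6.19 in the KO (0.52, SE 0.27), and its partner Fanci differed by 0.16. The core complex genes Fancg, Fanca and Fancc differed by 0.13, -0.02 and -0.10.

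**Figure D2:**
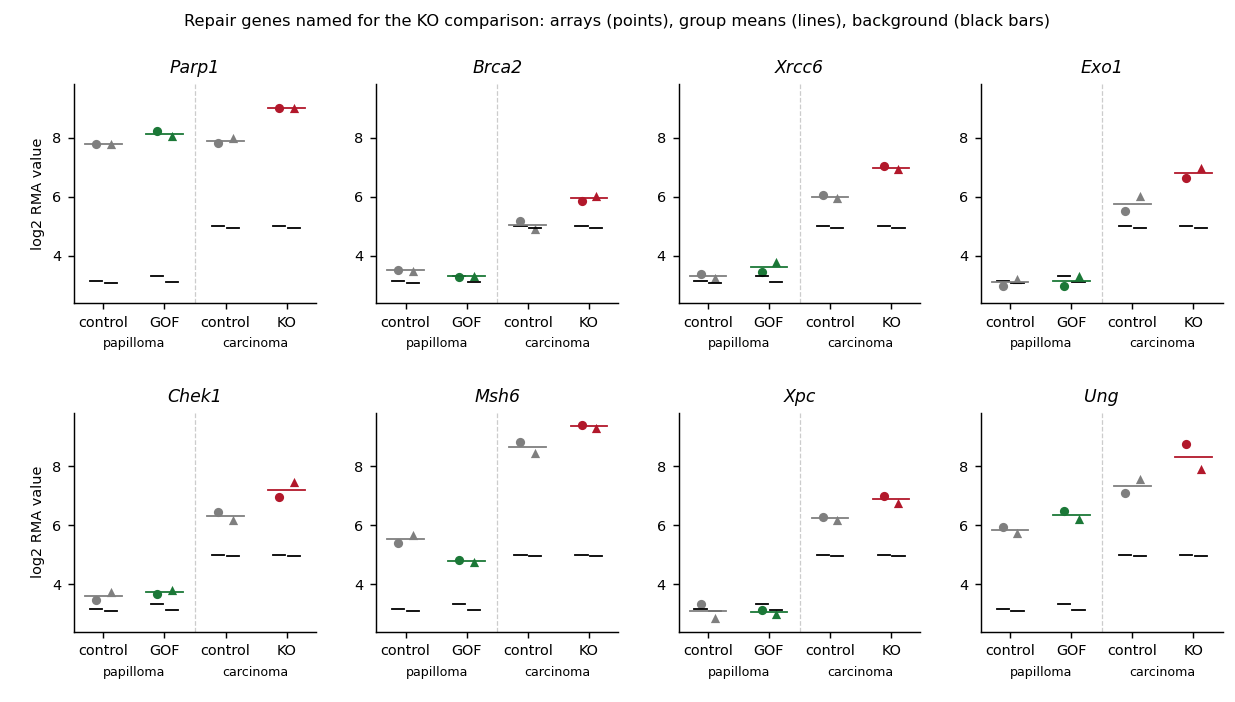
Log2 RMA values (vertical axis) of the 8 members with the smallest p in the KO comparison on all 8 arrays (points; circles, replicate 1; triangles, replicate 2), with group means (coloured lines) and each array's background (black bars). Papilloma and carcinoma are on different scales and are not to be compared; in papilloma Brca2, Xrcc6, Exo1, Chek1 and Xpc lie within 1 log2 unit of background, whereas Parp1 and Ung lie far above it.

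The members' promoters were searched for letters bound by E2F factors, because several members stood higher together. RefSeq promoter windows of assembly GRCm38.p6, from 250 bases before to 50 after the start of the gene, were matched by symbol for 29 of the 37 members. All motifs were searched on both strands. One of TTTCCCGC or TTTGGCGC or TTTCGCGC occurred in 7 of these 29 (24.1%), namely Bard1, Brca2, Fancg, Msh3, Msh6, Rad51c and Xrcc6, and in 1.84% of all 32851 windows. The CCAAT box was found in 16 (55.2%) against 37.4% of all windows. The cell cycle element TTTGAA was found in 1 (3.45%) against 17.9%. The nuclear receptor core letters AGGTCA were found in 3 (10.3%; Fancc, Pms2 and Xrcc1) against 16.3%, and their direct repeat spaced by 1 base in 0 against 0.0396%. A match is a description of the letters in the window and no more. Of the 7 members with E2F letters, Bard1, Fancg and Msh3 were not higher on both KO arrays than on both controls. The windows of all genes were not matched to those of the members for base composition. Only exact letters were counted. The Chek1 window has no E2F match, yet letters near its end differ from TTTGGCGC in the last letter only.

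Of the 6 members with the smallest KO p and a window in the table, Brca2, Xrcc6 and Msh6 held the E2F letters, and Parp1, Chek1 and Ung did not. The first set of 3 is shown with the match in capitals, and Parp1 beside them because it had the smallest p without a match. Brca2 lies at chr5:150522371-150522670 on the plus strand, with the match at bases -168 to -161 counted from the start. Xrcc6 lies at chr15:82016119-82016418 on the plus strand, with the match at bases -46 to -39. Both matches read TTTCCCGC on the opposite strand. Msh6 lies at chr17:87974800-87975099 on the plus strand, with the match at bases 16 to 23 after the start. Parp1 lies at chr1:180568641-180568940 on the plus strand.
Brca2: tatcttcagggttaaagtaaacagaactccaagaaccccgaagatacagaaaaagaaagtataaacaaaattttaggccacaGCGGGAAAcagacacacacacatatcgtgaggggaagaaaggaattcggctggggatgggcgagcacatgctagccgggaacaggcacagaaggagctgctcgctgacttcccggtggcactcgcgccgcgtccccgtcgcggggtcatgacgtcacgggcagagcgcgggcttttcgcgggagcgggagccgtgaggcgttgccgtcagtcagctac
Xrcc6: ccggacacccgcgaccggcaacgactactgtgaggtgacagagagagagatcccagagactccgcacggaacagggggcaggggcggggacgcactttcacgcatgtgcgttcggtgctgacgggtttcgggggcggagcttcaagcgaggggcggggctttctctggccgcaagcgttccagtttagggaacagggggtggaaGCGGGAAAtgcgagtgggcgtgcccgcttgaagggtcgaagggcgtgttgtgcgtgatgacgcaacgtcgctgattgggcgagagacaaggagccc
Msh6: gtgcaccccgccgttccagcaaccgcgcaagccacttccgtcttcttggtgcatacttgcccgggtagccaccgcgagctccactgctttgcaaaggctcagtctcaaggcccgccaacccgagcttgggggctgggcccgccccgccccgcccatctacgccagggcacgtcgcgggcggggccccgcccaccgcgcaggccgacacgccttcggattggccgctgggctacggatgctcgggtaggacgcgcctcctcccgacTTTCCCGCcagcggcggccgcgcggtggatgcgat
Parp1: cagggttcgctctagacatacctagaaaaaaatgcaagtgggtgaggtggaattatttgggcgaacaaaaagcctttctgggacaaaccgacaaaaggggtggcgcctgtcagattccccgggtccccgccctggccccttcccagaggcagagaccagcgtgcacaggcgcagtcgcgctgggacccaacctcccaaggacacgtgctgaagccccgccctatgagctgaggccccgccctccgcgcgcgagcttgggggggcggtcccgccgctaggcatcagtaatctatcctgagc

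The probe sets of 1 gene did not always give the same difference. Of the 20 members with several probe sets, 16 had only positive differences in the KO, Parp1, Exo1, Chek1, Brca1, Rad51c and Pms2 among them. The 34 dimmer probe sets of tested members gave positive differences in 32 cases. Of these dimmer probe sets, 17 were above background on all 4 carcinoma arrays, 15 of them positive, with a median difference of 0.18. The other 17 were all positive, from 0.01 to 0.91, with a median of 0.12. A positive sign was thus also given where signal was not above background. The share of positive differences over all dimmer probe sets of the array was not counted. The Chek1 probe sets above background on all 4 carcinoma arrays gave 0.46 and 0.89, and those of Brca1 0.79 and 0.63. The ends of the range of Chek1, 0.06 and 0.91, and the low end of Brca1, 0.08, came from probe sets below background on both control arrays. The second Xrcc6 probe set, at 4.39 and 4.45 against 4.48 and 4.44 and so below background, differed by 0.04. With the mean of the probe sets that passed the filter, the log2 fold change of Xrcc6 was 0.52 and that of Chek1 0.58. Without probe sets of the cross-matching kinds _s_at and _x_at, that of Chek1 was 0.46.

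**Figure D3:**
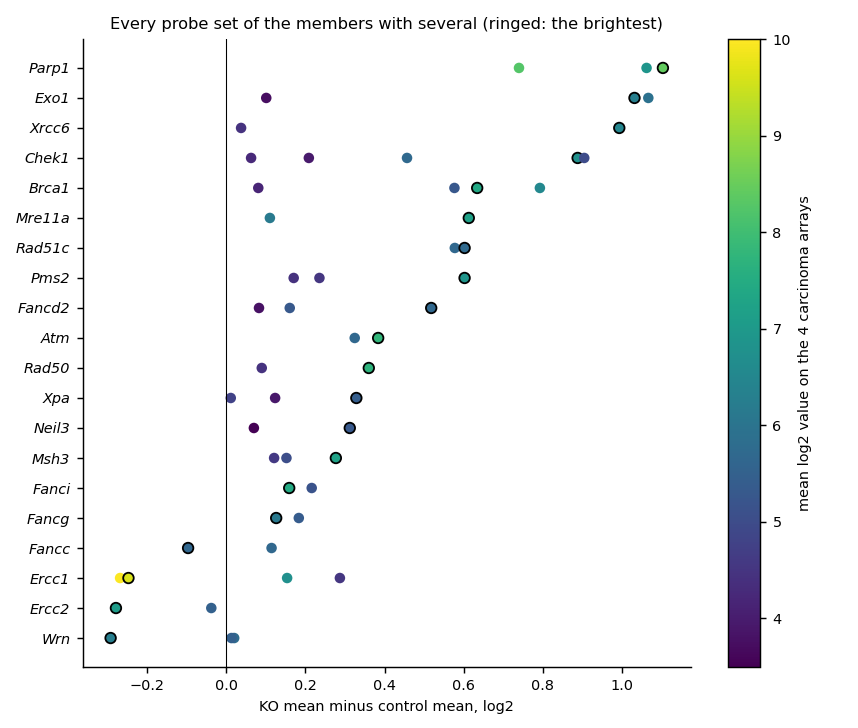
KO mean minus control mean (horizontal axis, log2) for every probe set of the 20 members that have several, coloured by the mean level on the 4 carcinoma arrays, with the brightest ringed. The 5 Chek1 probe sets range from 0.06 to 0.91, both ends being below background in the controls, and those of Wrn, Ercc1, Ercc2 and Fancc reach below 0.

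Replication and mitosis genes stood higher on the same arrays. Over 29 S phase genes the mean was 8.04 and 8.07 in control carcinoma and 8.58 and 8.80 in the KO, with a median log2 fold change of 0.62. Over 26 genes of G2 and mitosis it was 7.77 and 7.92 against 8.26 and 8.79, with a median of 0.74. Over the 34 repair members it was 6.57 and 6.63 against 6.88 and 7.13. KO replicate 2 was the higher KO array on all 3 lists, and above KO replicate 1 for 27 of the 34 members. What part cell cycle genes have in the repair result was not tested.

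Markers of other cells differed between the control carcinoma arrays. Over 15 macrophage and monocyte markers the level averaged 5.43 and 7.03 in the controls against 5.24 and 5.59 in the KO. That of 11 endothelial markers was 5.29 and 6.10 against 5.06 and 5.22, and that of 9 fibroblast markers 6.92 and 8.72 against 6.33 and 7.20. Above background were 13 and 15 of the macrophage markers in the controls and 8 and 12 in the KO. Control replicate 2 was thus the array with the most stromal signal. Without it the median log2 fold change of the members was 0.32, and 25 members were higher on both KO arrays than on control replicate 1, against 34.4% of all genes. Without control replicate 1, 21 members were higher on both KO arrays than on control replicate 2, against 42.7% of all genes. The median was 0.52 without KO replicate 1 and 0.25 without KO replicate 2.

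**Figure D4:**
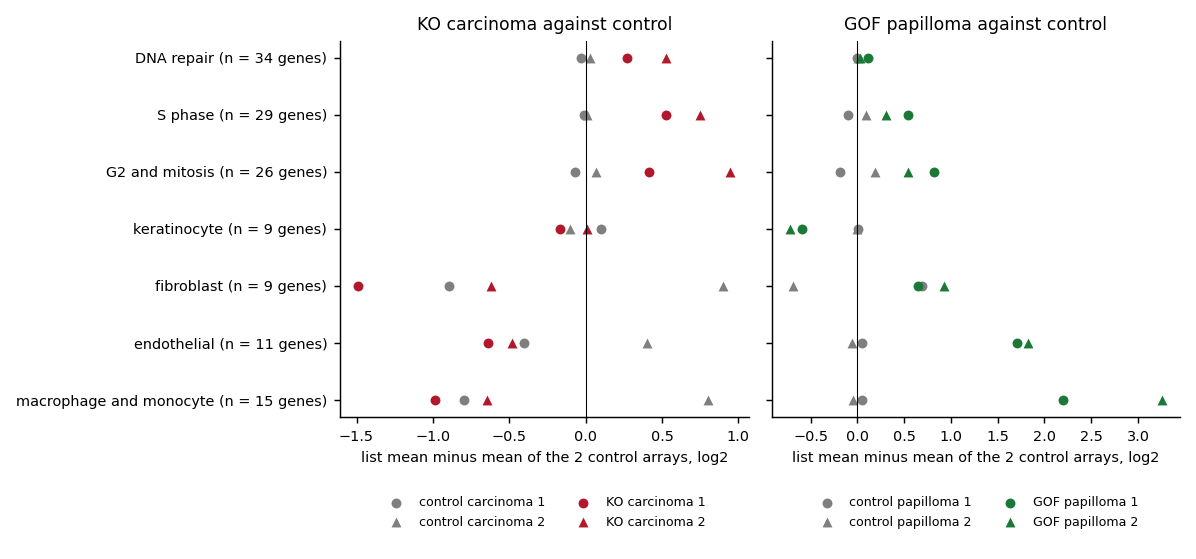
Mean of each gene list on each array minus the mean of the 2 control arrays (horizontal axis, log2), for KO carcinoma (left, red) and GOF papilloma (right, green) with their controls in grey; circles are replicate 1 and triangles replicate 2. The repair, S phase and G2 lists are right of the controls in KO carcinoma; in GOF papilloma the macrophage and endothelial lists are far right and the repair list is near 0.

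Of 120 further repair genes listed, 102 were tested, and 83 of them had a positive log2 fold change in the KO, with a median of 0.25 against 0.01 over all genes. None passed limma's adjusted threshold. At an unadjusted limma p under 0.05, 29 were higher (28.4%) against 8.34% of all genes, and 1 was lower (0.98%) against 5.44%. Both KO arrays were above both controls for 58 (56.9%) against 23.8% of all genes. By route, that held for 13 of 19 other recombination genes, 8 of 11 genes of mismatch repair and its replication clamp and loader, 10 of 18 of base excision and strand break repair, 9 of 15 of damage signalling, 6 of 10 of lesion bypass and direct reversal, 6 of 13 of nucleotide excision, 4 of 9 Fanconi genes and 2 of 7 of end joining, the last (28.6%) near the share over all genes. The 4 with the smallest p among those at least 1.5-fold apart on every pair were Rad51ap1, a recombination gene, with 5.29 and 5.79 against 6.83 and 7.43 (1.59, SE 0.25), the clamp loader gene Rfc1 (1.07, SE 0.19), Usp1, which takes ubiquitin off Fancd2 (0.87, SE 0.17), and the bypass polymerase Polh (1.15, SE 0.25), with limma adjusted p-values from 0.122 to 0.150. The 1 gene lower at an unadjusted p was Wee1, the kinase that delays mitosis, chosen after its values were seen, with 8.93 and 8.73 against 7.16 and 8.05 (-1.23, SE 0.32).

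With NR2F2 overexpressed in papilloma, the members' counts lay close to or below those over all genes. Of the 34 members, 20 had positive and 14 negative log2 fold changes, with a median of 0.05 against 0.02 over all genes. None passed limma's adjusted threshold, which 1.21% of all genes did. At an unadjusted p under 0.05, 3 members were higher (8.82%) against 9.94% of all genes, and 1 was lower against 6.47%. The GOF arrays were both above both controls for 10 members (29.4%) against 27.3% of all genes, and both below for 3 (8.82%) against 21.3%. Of these 10, Fancc, Palb2 and Bard1 were above background on no papilloma array; with the filter set within each tumour type the count was 7 of 30 (23.3%) against 30.5% of all genes. No member differed at least 1.5-fold on all 4 pairs, where 3.90% of all genes did so upwards and 2.19% downwards. Without control replicate 1 the GOF arrays were both above the remaining control for 16 members, against 43.6% of all genes.

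Msh6 had the smallest p among the members in papilloma, and it was lower with NR2F2. It read 5.39 and 5.66 in the controls against 4.83 and 4.75 in the GOF tumours, clear of each other and above background. The log2 fold change was -0.73 (limma adjusted p = 0.106, SE 0.17), 1.66-fold lower. By their brightest probe sets, Msh3 and Brca2 were also lower on both GOF arrays, by smaller steps. Msh3 read 3.54 and 3.39 against 3.25 and 3.24, and Brca2 3.53 and 3.5 against 3.30 and 3.32. For each, 1 GOF array was below background. The other Msh3 probe sets differed by 0.14 and 0.09, with overlapping groups. That with 0.14 was above background on all 4 papilloma arrays, so the lowering of Msh3 rests on the brightest alone.

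Parp1 was higher in GOF papilloma, with 7.79 and 7.78 in the controls against 8.22 and 8.05 in the GOF tumours. The groups did not overlap, and the log2 fold change was 0.35 (limma adjusted p = 0.248, SE 0.13). The other Parp1 probe sets differed by 0.08 and 0.30, with overlapping groups. Mre11a read 4.52 and 4.03 against 4.92 and 4.75 (0.56, SE 0.22, limma adjusted p = 0.270), and Ung 5.94 and 5.75 against 6.47 and 6.22 (0.50, SE 0.30). The second Mre11a probe set differed by 0.13, with overlapping groups. Rad51c read 3.0 and 3.38 against 3.93 and 3.52 (0.54, SE 0.20), with 1 control below background. Its second probe set differed by -0.38, so that the mean of both gave 0.08. Xrcc6 read 3.40 and 3.26 against 3.45 and 3.80 (0.30, SE 0.16) and Xpa 3.40 and 3.22 against 3.96 and 3.38 (0.36, SE 0.23), both near background. With the mean of the probe sets that passed the filter, Xrcc6 stood at 0.12 and Xpa at 0.09. Single arrays decided some of these differences: Mre11a stood at 0.31 without control replicate 2, Rad51c at 0.33 without GOF replicate 1 and 0.35 without control replicate 1, Xpa at 0.07 without GOF replicate 1 and 0.65 without GOF replicate 2, and Xrcc6 at 0.12 without GOF replicate 2 and 0.48 without GOF replicate 1. Fancc, Palb2 and Bard1 were not above background on any papilloma array, and no fold is given for them.

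Of the 102 other repair genes tested, none was past the adjusted threshold of limma with NR2F2 overexpressed, and their median log2 fold change was 0.07. At an unadjusted limma p under 0.05, 13 were higher (12.7%) against 9.94% of all genes, and 3 were lower (2.94%) against 6.47%. At least 1.5-fold higher on every pair were 4 (3.92%), against 3.90% of all genes: the TFIIH subunit Gtf2h4 (0.98, SE 0.18), Usp1 (0.94, SE 0.17), the fork protection gene Tipin (1.05, SE 0.22) and the polymerase subunit Pold2 (0.96, SE 0.24), with limma adjusted p-values from 0.0626 to 0.123. The S phase list mean was 5.39 and 5.58 in the controls against 6.02 and 5.79 in the GOF tumours, and that of G2 and mitosis 4.92 and 5.30 against 5.93 and 5.64. Epcam, the sorted protein's gene, read 10.17 and 10.57 against 9.0 and 8.68 (-1.53, limma adjusted p = 0.0372, SE 0.22). The 15 macrophage markers averaged 3.18 and 3.08 against 5.33 and 6.39, the 11 endothelial markers 3.46 and 3.35 against 5.11 and 5.22, and the 9 keratinocyte markers 9.91 and 9.90 against 9.31 and 9.19. The part of these other cells in the members' values was not tested.

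The KO and GOF comparisons share no arrays. Of the 34 members, 18 were positive in both, 3 negative in both, 11 positive in the KO and negative with GOF, and 2 the reverse. Over all 13939 genes these counts were 3937, 3291, 3172 and 3527. Across the 34 members the 2 log2 fold changes correlated at r = 0.27 (Spearman's rho 0.27), a description over genes that share arrays and are not independent; over all genes r was -0.02. By their brightest probe sets, Parp1, Xrcc6, Ung, Rad51c and Mre11a were higher on every array pair in both comparisons. Ung had no other probe set. In papilloma the second Rad51c probe set was lower on every pair, and the dimmer probe sets of Parp1, Xrcc6 and Mre11a overlapped between groups. In the KO those of Xrcc6 and Mre11a also overlapped. Msh6 and Brca2 were higher on every pair in the KO and lower on every pair with GOF. Over all genes, 23.8% were higher on every pair in the KO. With GOF, 27.3% of all genes were higher and 21.3% lower on every pair. How many of all genes had either combination was not counted. The difference between the effects, KO minus GOF, was 1.43 for Msh6 (limma adjusted p = 0.0873, SE 0.24), 1.10 for Brca2 (limma adjusted p = 0.102, SE 0.20) and 0.75 for Parp1 (limma adjusted p = 0.164, SE 0.19). No member passed this test, which 0.0789% of all genes did. Without control carcinoma replicate 1 the difference for Msh6 was 1.62. That fit leaves 1 array in the group, so no test is given for it.

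**Figure D5:**
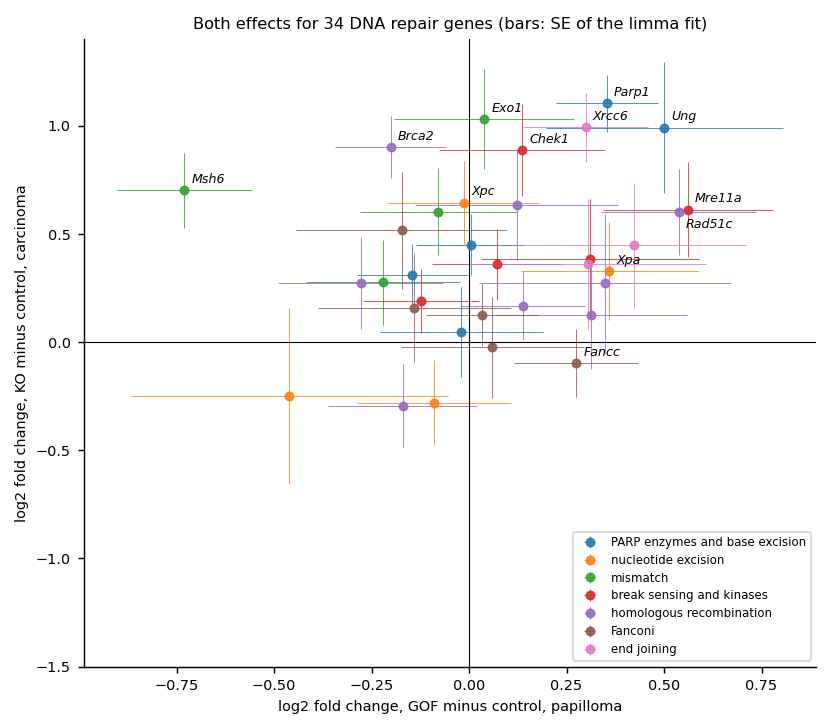
Log2 fold change of each of the 34 members in GOF papilloma (horizontal axis) and KO carcinoma (vertical axis), coloured by repair role, with the SE of the limma fit as bars. Msh6 lies alone at the left, at -0.73 and 0.70, while Parp1, Ung and Xrcc6 are at the upper right.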

How the data were processed

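RNA from sorted tumour cells was read on Affymetrix PM array strips for mouse, 2 per group, with the 4 groups set from the sample titles; the cDNA was amplified first, per the labels' protocols. The authors deposited log2 values made with the RMA algorithm and the affy package, per the labels, with no versions given. Of 45141 probe sets, 28898 had 1 gene symbol in the platform annotation. Probe sets needed 2 or more arrays over 4.23, the median of the whole table, and the brightest stood for its gene. That level lies between the medians of the 2 tumour types, so it was also set within each type.

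The fit used limma 3.58.1 under R 4.3.3, with lmFit and eBayes (1 mean per group, 4 residual degrees of freedom over 8 arrays), and Benjamini-Hochberg adjustment over all 13939 genes and a threshold of 0.05. The exact permutation test of 2 arrays against 2 cannot go below p = 0.333. SE is that of the limma fit, which pools the spread of all 4 groups. The SE and p beside carcinoma values thus also carry papilloma spread. For Xrcc5 the standard deviation was 0.64 in control papilloma but 0.11 and 0.32 in control and KO carcinoma. For Prkdc it was 0.62 against 0.23 and 0.11. The code was tested on simulated data. The KO and GOF comparisons were made within tumour types, and their difference was tested. Described in full were members at least 1.5-fold apart on all 4 pairs, then those with the smallest p up to 8 per comparison. Members and lists were chosen with earlier results of these data known. The number of arrays limits the precision. Alternatives were another prior, a replicate block, other filters, median centring, the 4 arrays of a tumour type alone, the mean of probe sets, probe sets without _s_at and _x_at, and each array left out.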

Additional observations from a re-analysis of the deposited data

Results flagged for a closer look

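Msh6 and Brca2 differed in opposite ways on every array pair, higher in KO carcinoma and lower in GOF papilloma. Of all genes, 23.8% were higher on every pair in the KO and 21.3% were lower on every pair with GOF. The share of all genes with both was not counted, so the pattern is not read as particular to the members. The KO effect minus the GOF effect was 1.43 for Msh6 and 1.10 for Brca2 on the log2 scale, and neither passed limma's adjusted threshold (adjusted p = 0.0873 and 0.102). Brca2 was near background on the papilloma arrays and in control carcinoma.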

How the results depend on the processing

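The named members kept their direction under 16 alternatives (8 other settings and each array left out in turn). Under the 8 other settings, no member passed the adjusted threshold in either comparison. Fancc in papilloma gave no value with the filter set within each tumour type. A fit with 1 array left out has 1 array in a group, so no test is given for it. For the difference of effects, no member passed under the other settings that kept all 8 arrays. Without control carcinoma replicate 1 the difference for Msh6 was 1.62, from a fit with 1 array left in that group. In the KO the members' median of 0.36 ran from 0.25 to 0.52 with arrays left out. The count with every KO array kept above every control kept ran from 20 to 30. The 30 (88.2%) came without KO replicate 1, where 37.9% of all genes did so. Over all genes that share ran from 23.8% to 42.7% with arrays left out. In papilloma, the 3 members higher at an unadjusted limma p under 0.05 became 1 with a trended and robust prior. They became 0 when probe sets were averaged and 1 under the replicate block. The count with every GOF array kept above every control kept ran from 10 to 16 with arrays left out. The 16 (47.1%) stood against 43.6% of all genes. It was 7 of 30 (23.3%) against 30.5% with the filter set within each tumour type. When probe sets were averaged it was 9 (26.5%) against 27.3%. Replicate numbers are not stated to pair the arrays. Deviations of same-numbered arrays correlated at 0.002 in papilloma and 0.13 in carcinoma. With the replicate block 14 KO members were higher at an unadjusted limma p under 0.05, against 13 without it. Under the 8 other settings that count ran from 11 to 14. The limma adjusted p of Parp1 in the KO ran from 0.0745 to 0.351 under the 8 other settings. Levels near background limit the papilloma values.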
